A study of Mus musculus with 40 samples.

Results

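Mouse epiblast-like aggregates that had been exposed to XAV939 were compared with untreated aggregates at day 4, 1 day after the inhibitor was removed. The comparison uses 8 of the 40 RNA-seq libraries of the series, chosen by the labelled day and arm: 4 of XAV939 aggregates and 4 of untreated aggregates. Each XAV939 library was paired with the untreated library of the same replicate number. All aggregates were made from CGR8, a mouse embryonic stem cell line of strain 129, in N2B27, a medium without serum, with Activin-A, Fgf2 and KSR added. In 1 arm XAV939 was present from 0 to 72 h, and the other arm has no treatment in its labels. The untreated titles say that no matrigel was used and the XAV939 titles do not mention it, so a difference in matrigel cannot be told apart from the inhibitor. Every library comes from 1 cell line. Nothing in the labels ties a replicate to a culture of its own, so the spread behind each p-value is that between libraries and may be technical.

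XAV939 blocks the tankyrases, enzymes that mark the scaffold protein Axin for destruction. Axin then accumulates in the complex that degrades β-catenin, and transcription of Wnt/β-catenin targets declines. In the mouse embryo Wnt3 and Nodal signals in the posterior epiblast induce the primitive streak, marked by T (Brachyury), Eomes and Mixl1, from which mesoderm and definitive endoderm arise. Epiblast that is shielded from Wnt and Nodal by secreted antagonists becomes anterior neural tissue.

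The 8 libraries held between 32328070 and 37011811 counts. Levels are given as CPM, counts scaled by TMM to the same library total, and each gene's 4 values run from replicate 1 to replicate 4. Epiblast genes were present in both arms, at levels that differed widely between genes. Dnmt3b, a DNA methyltransferase, lay between 1230 and 2910 CPM in XAV939 aggregates and between 1160 and 2600 CPM in untreated aggregates. Utf1 lay between 12.8 and 76.2 CPM in XAV939 aggregates and between 7.75 and 49.6 CPM in untreated aggregates. The trophoblast genes Prl3d1 and Tpbpa had 0 counts in all 8 libraries, and Ttr, of visceral endoderm, had 3 counts over the XAV939 libraries and 0 over the untreated ones. Untreated library 1 stood apart from the others. It was the highest of the 8 by at least 2-fold in 375 genes and the lowest by at least 2-fold in 482, against 1 to 79 and 12 to 48 genes in the other libraries. Differences within pair 1 had an SD of 0.847 on the log2 scale across 16878 genes, and those within pairs 2, 3 and 4 had SDs of 0.388, 0.347 and 0.418. The main results are therefore given with all 4 pairs and without replicate 1. Mitochondrially encoded transcripts were low in both libraries of replicate 1, with a summed 13100 CPM with XAV939 and 15500 CPM without, against 26600 to 34900 and 30600 to 33600 CPM in the others.

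No gene passed the test. The paired edgeR quasi-likelihood fit called 0 genes higher and 0 genes lower with XAV939 at a Benjamini-Hochberg adjusted p below 0.05 (0% of 16878 each way), and the smallest adjusted p was 0.24. At an unadjusted p below 0.05 it had 934 genes higher (5.53%) and 726 lower (4.3%), and without replicate 1 it had 365 and 148 (2.16% and 0.877%) with again 0 calls. DESeq2 with the same pairs called 35 genes higher and 32 lower (0.251% and 0.23% of the 13933 genes to which it gave an adjusted p), and limma-voom with library weights and no pairing called 0. Without the pairing edgeR called 3 genes lower, T, Mixl1 and Mcc (0.0178%), and none of these without replicate 1. The values below are therefore levels and pair differences and not called changes, and each count of members in all 4 pairs is to be read against all genes, of which 10.2% were lower and 11% higher with XAV939 in all 4 pairs.

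The median primitive streak gene was at a lower level with XAV939 in each of the 4 pairs, with log2 differences of -3.57, -0.32, -0.06 and -0.56. Of the 19 tested members of the list of streak and mesendoderm genes, 8 were lower in all 4 pairs (T, Mixl1, Eomes, Gsc, Fgf8, Foxa2, Evx1 and Wnt3) and 0 were higher in all 4, against 10.2% and 11% of all genes. The same 8 of 19 held in pairs 2 to 4, where the share of all genes was 15.6%. The median log2 fold change of the list was -1.28 with all pairs and -0.26 without replicate 1, against -0.00 over all genes in both fits. In these bulk libraries fewer streak-like cells and less of these RNAs per cell cannot be told apart.

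T, the T-box factor that defines the streak, lies on chromosome 17 (8434423 to 8442496, GRCm38, plus strand). It had 2.59, 7.8, 3.17 and 7.03 CPM in XAV939 aggregates and 550, 24.6, 11.8 and 17.2 CPM in untreated aggregates. All 4 XAV939 libraries lay below all 4 untreated ones, as in 1.04% of all genes, and untreated library 1 was far above the rest. The log2 fold change was -2.72 (SE 0.694, edgeR adjusted p 0.24), and -1.60 (SE 0.315, edgeR adjusted p 0.575) without replicate 1. Over the alternatives the adjusted p ran from 0.011 to 1. The 550 CPM of untreated library 1 also exceeded the untreated day 5 libraries, which ran from 283 to 490 CPM. At day 3 T had been at 0.622 to 0.932 CPM with XAV939 and at 1.56 to 2.31 CPM without.

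The 250 bases before the start of T are shown because T was the only one of the 8 streak and caudal genes with an entry in RefSeq's promoter table that held the core of the motif bound by TCF and LEF factors, the DNA-binding partners of β-catenin. They run over chr17:8434173-8434422 on the plus strand of GRCm38.p6 and are written 5′ to 3′, with the match in capitals, 234 bases before the start.
T: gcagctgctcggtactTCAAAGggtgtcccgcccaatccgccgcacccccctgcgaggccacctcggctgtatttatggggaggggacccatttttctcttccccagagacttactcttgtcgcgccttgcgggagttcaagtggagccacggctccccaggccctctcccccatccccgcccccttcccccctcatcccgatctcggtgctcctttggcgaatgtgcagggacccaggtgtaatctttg
The search was for CTTTGA on either strand, which reads TCAAAG on the other. It was found in 1 of the 10 promoters of these 8 genes and in 13.8% of all 32851 promoters of the table. A match is a description of the letters and does not show a site in use.

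Mixl1, a homeobox factor of mesendoderm (chromosome 1, 180693043 to 180697034), had 0.511, 1.1, 0.576 and 0.942 CPM in XAV939 aggregates and 167, 4.17, 2.06 and 2.82 CPM in untreated aggregates. The arms did not overlap. Its log2 fold change was -3.47 (SE 0.796, edgeR adjusted p 0.24), and -1.78 (SE 0.35) without replicate 1. The pair differences were -8.21, -1.87, -1.74 and -1.53 on the log2 scale, so pairs 2 to 4 were alike and pair 1 was not.

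Eomes, the T-box factor that acts beside T in the streak, was present at higher levels throughout. It had 45, 82.6, 49.6 and 64.1 CPM with XAV939 and 343, 133, 81.9 and 106 CPM without. XAV939 library 2 just overlapped untreated library 3, while each pair differed in the same direction, with a log2 fold change of -1.23 (SE 0.361) and of -0.72 without replicate 1. Foxa2, a forkhead factor of the anterior streak and endoderm, had 0.842, 2.07, 1.01 and 1.98 CPM with XAV939 and 31.9, 3.03, 2.57 and 3.28 CPM without, and the arms did not overlap. Its log2 fold change was -1.90 (SE 0.525), and -0.84 without replicate 1. Evx1, a homeobox factor of the posterior streak whose annotation overlaps the antisense gene Evx1os, had 0.346 to 1.41 CPM with XAV939 and 0.847 to 37.1 CPM without, with a log2 fold change of -2.18 (SE 0.587), and -0.94 without replicate 1.

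Several members of the list had their difference in pair 1 alone. Cer1, a secreted antagonist of Nodal, BMP and Wnt, had at most 0.0864 CPM in the XAV939 libraries and at most 0.057 CPM in untreated libraries 2 to 4, while untreated library 1 had 9.45 CPM. Its log2 fold change of -5.65 became 0.51 without replicate 1. Mesp1, of the first mesoderm, had at most 0.0601 CPM with XAV939 and at most 0.0556 CPM in untreated libraries 2 to 4, while untreated library 1 had 1.81 CPM. Lhx1, a LIM homeobox factor of mesendoderm, had a log2 fold change of -3.07, and 0.53 without replicate 1.

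**Figure D1:**
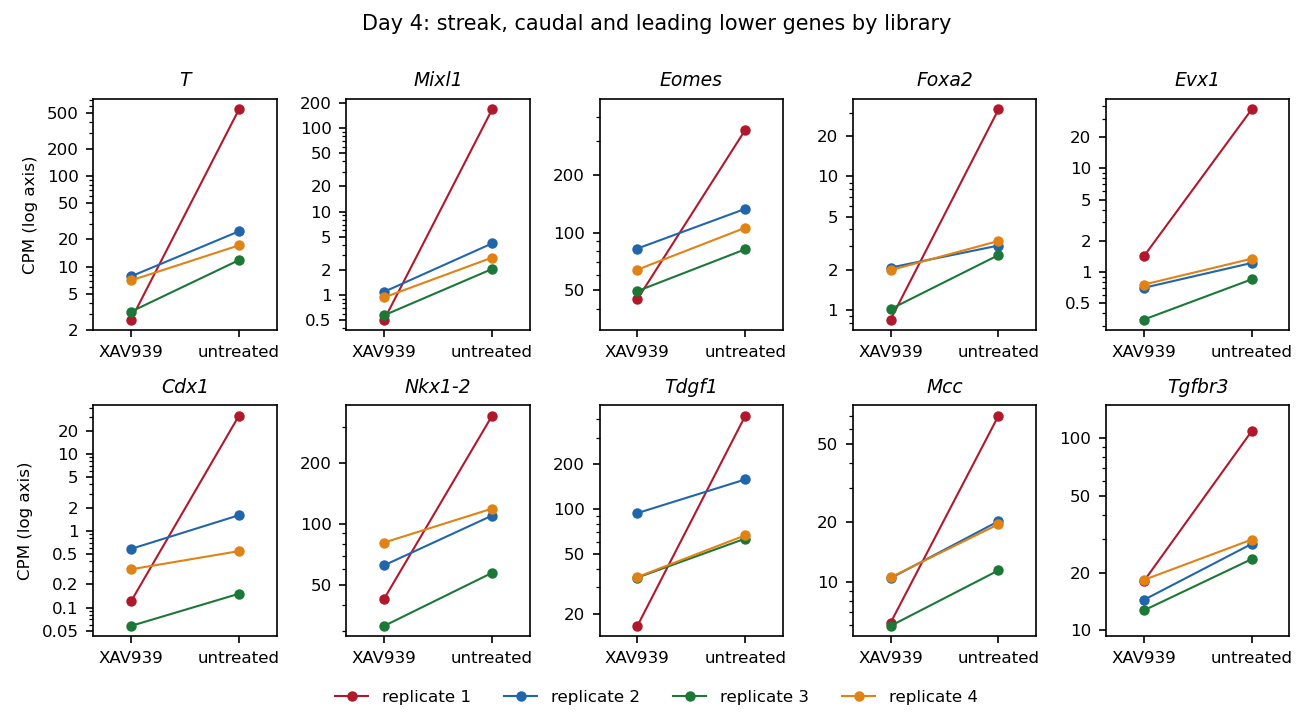
CPM (log axes, scaled per gene) of 10 genes in the 4 XAV939 libraries (left) and the 4 untreated libraries (right) of day 4, with lines joining libraries of the same replicate number. All lines run upward from XAV939 to untreated, and that of replicate 1 is the steepest in each panel, as for T at 2.59 CPM with XAV939 and 550 CPM without.

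Genes of the caudal epiblast, the tissue beside the regressing streak that feeds spinal cord and trunk mesoderm, were counted in the same way. Of 13 tested members 7 were lower with XAV939 in all 4 pairs and 1 (Greb1) was higher, against 10.2% and 11% of all genes. In pairs 2 to 4 there were 7 lower and 3 higher, against 15.6% and 16.9%. The median log2 fold change was -1.28, and -0.55 without replicate 1. Of these 7, T, Fgf8 and Evx1 are also on the streak list. Nkx1-2, a homeobox factor of neuromesodermal progenitors, had 43, 62.7, 31.6 and 81.1 CPM with XAV939 and 340, 110, 57.6 and 119 CPM without. The arms overlapped because levels varied between replicates by more than they did within pairs 2 to 4. The paired fit gave -1.27 (SE 0.363), and -0.74 (SE 0.316) without replicate 1. Its annotation overlaps that of Fgfr2 on the same strand.

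The Cdx genes, which pattern the trunk and activate Hox genes, were at low levels at day 4. Cdx1 had 0.12, 0.579, 0.0576 and 0.314 CPM with XAV939 and 31.4, 1.59, 0.151 and 0.542 CPM without. Cdx4 had 0.0301, 0.0305, 0.0864 and 0.0628 CPM with XAV939 and 1.24, 0.445, 0.0907 and 0.2 CPM without, a few counts per XAV939 library. Both were lower in 4 of 4 pairs, and pair 3 differed least for Cdx4. The log2 fold change of Cdx1 was -3.78, and -1.22 without replicate 1, and that of Cdx4 was -2.99, and -1.91 without it. Cdx2 was lower in 3 pairs. Hox genes of paralogue groups 1 to 4 had a median log2 fold change of -0.70, and of -0.00 without replicate 1.

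Axial mesendoderm genes, of the node and notochord, had a median of -1.99 that became -0.34 without replicate 1, and 2 of 10 were lower in all 4 pairs (Foxa2 and Gsc). Genes of presomitic and paraxial mesoderm had a median of -0.40 with all pairs and of 0.38 without replicate 1.

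The signals that induce the streak were examined next. Of 12 tested Nodal pathway genes 5 were lower with XAV939 in all 4 pairs, Tdgf1 and Smad7 among them, and 0 were higher in all 4. In pairs 2 to 4 there were 6 lower and 0 higher, against 15.6% and 16.9% of all genes. The median log2 fold change of the list was -0.56, or -0.17 without replicate 1. Tdgf1 (Cripto), the co-receptor that Nodal needs, had 16.6, 94.1, 34.9 and 35.2 CPM with XAV939 and 421, 158, 63.6 and 66.9 CPM without. Its pair differences in pairs 2 to 4 were alike, at -0.75, -0.87 and -0.92 on the log2 scale, and the fitted value was -1.62 (SE 0.52), and -0.85 without replicate 1. The ligand Nodal itself had 25, 79.6, 51.5 and 31.4 CPM with XAV939 and 84.5, 79.3, 52.4 and 42.1 CPM without. In pairs 2 and 3 Nodal was level between the arms, and its log2 fold change without replicate 1 was -0.15 (SE 0.305). Smad7, an inhibitor that TGF-β signals induce, had a log2 fold change of -0.65 (SE 0.21), and -0.39 without replicate 1.

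Among FGF ligands and the feedback genes that ERK signalling induces, 7 of 17 were lower in all 4 pairs (Fgf5, Fgf8, Spry2, Spry4, Spred1, Dusp6 and Egr1) and 2 were higher (Spry1 and Dusp4). The ligand Fgf8 had 3.61, 5.43, 2.71 and 3.49 CPM with XAV939 and 42.7, 6.79, 4.11 and 5.85 CPM without. The feedback inhibitor Spry4 had 11, 7.74, 7.75 and 7 CPM with XAV939 and 42.5, 11.7, 11 and 10.5 CPM without, a log2 fold change of -0.92 (SE 0.258), and -0.56 without replicate 1. The arms touched only where XAV939 library 1 met the lowest untreated libraries. The median of the list was -0.52, and -0.17 without replicate 1.

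Wnt pathway genes were then taken by role. Of 19 tested Wnt ligands 3 were lower in all 4 pairs (Wnt3, Wnt8a and Wnt9b) and 3 were higher (Wnt7b, Wnt8b and Wnt16), and the median of the list was -0.38, or 0.12 without replicate 1. Wnt3, the ligand that starts the streak, had 4.96, 6.62, 3.6 and 5.06 CPM with XAV939 and 59.5, 10.1, 6.56 and 7.47 CPM without. Only XAV939 library 2 reached into the untreated range, just above untreated library 3, and the log2 fold change was -1.36 (SE 0.528), and -0.68 without replicate 1. Wnt8a, a ligand of the posterior epiblast, had 28.7, 78.3, 46.4 and 64.6 CPM with XAV939 and 183, 102, 57.1 and 75.9 CPM without, and its log2 fold change of -0.85 became -0.31 without replicate 1. Wnt1, a ligand of the midbrain and the dorsal neural tube, and its neighbouring gene Wnt10b were higher in 3 of 4 pairs. Wnt1 had 9.14, 0.305, 0.0576 and 7 CPM with XAV939 and 0, 0.0556, 0.121 and 1.6 CPM without. The level of Wnt1 in replicates 1 and 4 exceeded that in replicates 2 and 3 with XAV939, and its log2 fold change of 3.25 (SE 1.1) became 1.82 (SE 1.03) without replicate 1.

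Direct targets and feedback genes of β-catenin were close to level 1 day after removal of the inhibitor. Of 20 tested 4 were lower in all 4 pairs (Cdx1, Cdx4, Znrf3 and Lgr4) and 1 was higher (Ccnd1), and the median was -0.20, or 0.00 without replicate 1. Axin2, a feedback scaffold widely used as a Wnt readout, had 80.4, 46.9, 34.7 and 48.8 CPM with XAV939 and 120, 44, 36.8 and 45.1 CPM without. The arms overlapped and 2 pairs were lower and 2 higher, with a log2 fold change of -0.12 (SE 0.177), and 0.04 (SE 0.195) without replicate 1. Lef1, a DNA-binding partner of β-catenin, had 45.3, 50.8, 46.6 and 33.7 CPM with XAV939 and 103, 49.3, 45.1 and 39 CPM without, so outside replicate 1 its levels were nearly the same. Sp5, a zinc finger target, was lower in 3 of 4 pairs.

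The 13 tested genes of the inhibitor's own target, the destruction complex and its partners had a median of -0.04, with 3 lower and 2 higher in all 4 pairs. Tnks, which encodes tankyrase, had 199, 182, 199 and 180 CPM with XAV939 and 187, 191, 208 and 232 CPM without, and Tnks2, which encodes its close relative, was lower in 4 of 4 pairs with a log2 fold change of only -0.17 (SE 0.0993). Axin1 had a log2 fold change of -0.03 (SE 0.068) and Ctnnb1, which encodes β-catenin, one of 0.11 (SE 0.0547). Of the 13, 2 had an unadjusted p below 0.05, Apc2 and Tcf7l1. Apc2, a neural relative of Apc, had 4.9, 2.68, 4.9 and 2.51 CPM with XAV939 and 0.72, 1.22, 3.24 and 2.05 CPM without. It was higher in 4 of 4 pairs, at 1.13 (SE 0.368), and 0.66 without replicate 1. Tcf7l1, a TCF factor that mostly represses, was higher in 3 of 4 pairs, at 0.53 (SE 0.226), and 0.14 without replicate 1.

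Of 16 tested Wnt receptors 2 were higher in all 4 pairs (Fzd2 and Fzd8) and 2 were lower (Fzd1 and Lrp6), and the median was 0.08, or -0.00 without replicate 1. Fzd8, a Frizzled receptor of anterior tissue, had 21.7, 9.08, 9.54 and 10.1 CPM with XAV939 and 6.19, 5.93, 7.62 and 7.36 CPM without. The arms did not overlap, as in 0.989% of all genes in this direction, and the log2 fold change was 0.80 (SE 0.211, edgeR adjusted p 0.24), and 0.47 without replicate 1. Fzd2, another Frizzled receptor, had 80.6, 42, 49.3 and 46 CPM with XAV939 and 40.7, 28.2, 42.7 and 37.3 CPM without, and its log2 fold change was 0.52 (SE 0.128), and 0.36 without replicate 1. Of 12 tested secreted antagonists 4 were higher in all 4 pairs (Dkk3, Sfrp1, Sfrp2 and Sfrp5) and 1 lower (Sfrp4). Sfrp1, which binds Wnt proteins and is also on the forebrain list, had 144, 42.7, 59.2 and 87.1 CPM with XAV939 and 12.4, 30.3, 52.7 and 71.5 CPM without, and its log2 fold change of 1.0 (SE 0.378) became 0.32 without replicate 1. The antagonist median was 0.31 both with and without replicate 1.

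**Figure D2:**
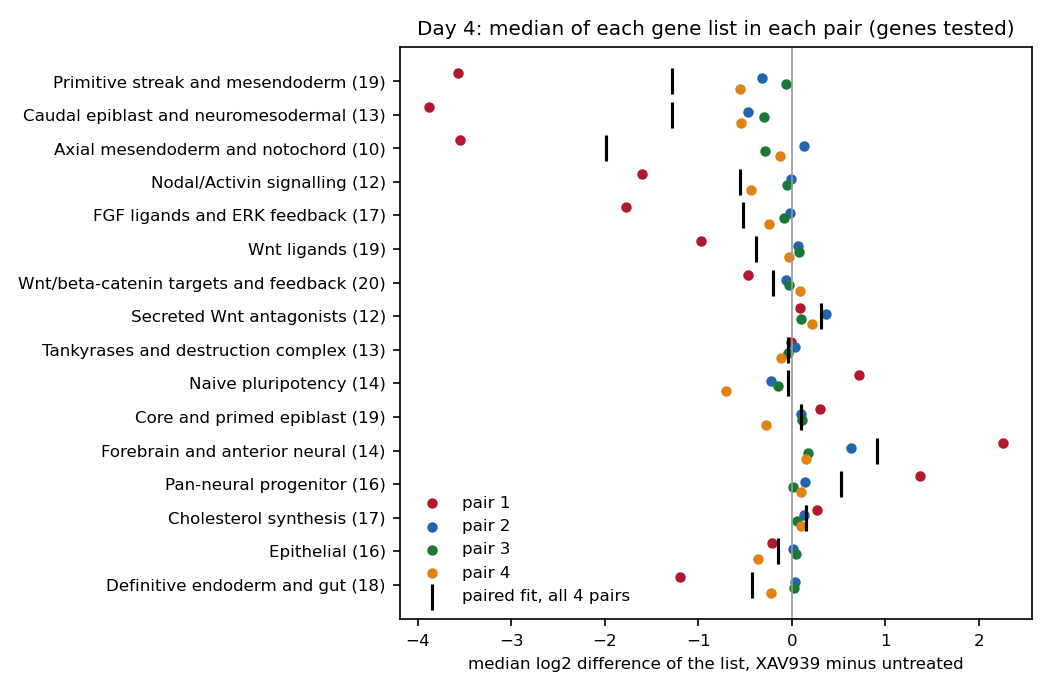
Median log2 difference (XAV939 minus untreated, x axis) of 16 gene lists in each of the 4 pairs of day 4 (points) and in the paired fit (bars), with the number of genes tested in brackets. The streak, caudal and axial lists lie between -3.88 and -3.55 in pair 1 and lie between -0.56 and 0.13 in pairs 2 to 4, and the forebrain list is above 0 in each pair.

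Genes of the anterior neural plate had the opposite sign to the streak genes. With all pairs, the 14 tested members of the forebrain list each had a positive log2 fold change, as had 8376 of all 16878 genes. Of the 14, 7 were higher in all 4 pairs (Hesx1, Lhx2, Lhx5, Pax6, Fezf2, Otx1 and Sfrp1) and 0 were lower in all 4. In pairs 2 to 4 these were again 7 of 14, where 16.9% of all genes were higher. The median was 0.91, or 0.48 without replicate 1, and in the 4 pairs it was 2.26, 0.63, 0.17 and 0.15. Most of these genes were still at low levels. Otx2, which is also on the epiblast list, had 180, 149, 168 and 112 CPM with XAV939 and 76.5, 138, 166 and 128 CPM without. Its log2 fold change was 0.28 (SE 0.386), and -0.03 without replicate 1.

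Hesx1, a homeobox repressor of the earliest forebrain (chromosome 14, 26994416 to 27002329), had 22.3, 1.31, 1.99 and 3.14 CPM with XAV939 and 0.144, 0.362, 1.94 and 2.11 CPM without. XAV939 library 1 was far above the rest, and pair 3 was level. The fold change on the log2 scale was 1.88 (SE 0.709), and 0.68 (SE 0.406) without replicate 1. Lhx5, a LIM homeobox factor of the forebrain, had 3.82, 0.213, 0.346 and 0.628 CPM with XAV939 and 0.115, 0.0278, 0.212 and 0.257 CPM without, and its log2 fold change was 2.53 (SE 0.567), or 1.29 without replicate 1. Each of its pairs was higher with XAV939, and the arms overlapped through library 2.

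Of 16 pan-neural genes 13 had a positive log2 fold change, and the median was 0.52, or 0.22 without replicate 1. In all 4 pairs 2 were higher (Pax6 and Zic1) and 1 was lower (Zic5), against 11% and 10.2% of all genes. Outside replicate 1 their summed levels were 606, 693 and 685 CPM with XAV939 and 607, 683 and 700 CPM without. Nes, at 114, 157, 185 and 109 CPM with XAV939 and 199, 176, 184 and 139 CPM without, was lower in 3 of 4 pairs. Its log2 fold change was -0.32 (SE 0.112), and -0.17 without replicate 1. Sox1, the earliest factor restricted to neural tissue, had 14.6, 3.93, 3.54 and 27.7 CPM with XAV939 and 2.36, 3.26, 4.08 and 11.1 CPM without. Replicates 1 and 4 held the high values with XAV939, and in replicates 2 and 3 the arms were alike. The log2 fold change was 1.04 (SE 0.404), and 0.54 without replicate 1. Sox2, the factor shared by epiblast and neural progenitors, had 38.7, 33, 37.4 and 32.6 CPM with XAV939 and 5.82, 36.1, 33.5 and 33.6 CPM without. Its 1 low value was that of untreated library 1, and its log2 fold change of 0.58 became -0.01 without replicate 1. Irx3, a homeobox factor of the neural plate, likewise had 23.2 to 51.9 CPM with XAV939 and 14.3 to 26.8 CPM in untreated libraries 2 to 4, but 4.92 CPM in untreated library 1, and its log2 fold change of 0.99 became 0.33 without replicate 1.

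Of the genes outside the chosen lists, Lmx1a, a LIM homeobox factor of the roof plate and midbrain, is given because it shared the smallest adjusted p in the DESeq2 fit, and it was chosen after its values were seen. It had 4.6, 0.274, 0.317 and 1.92 CPM with XAV939 and 0.0864, 0, 0.0907 and 0.599 CPM without. Each pair was higher with XAV939, and XAV939 libraries 2 and 3 lay below untreated library 4. Its log2 fold change was 3.09 (SE 0.584, edgeR adjusted p 0.24), and 1.98 (SE 0.56) without replicate 1, and its adjusted p ran from 0.000837 to 1 over the alternatives. Pax3, of the dorsal neural tube and neural crest, was also higher in 4 of 4 pairs, at 3.94, 0.549, 0.432 and 2.39 CPM with XAV939 and 0.0864, 0.0835, 0.333 and 1.14 CPM without, a log2 fold change of 2.11 (SE 0.63), and 1.14 without replicate 1. Unlike Lmx1a it belongs to a list, that of surface ectoderm and neural crest. The 13 tested members of that list had a median of 0.39, or -0.05 without replicate 1. In all 4 pairs 2 of them were higher and 1 was lower, and in pairs 2 to 4 there were 2 each way.

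**Figure D3:**
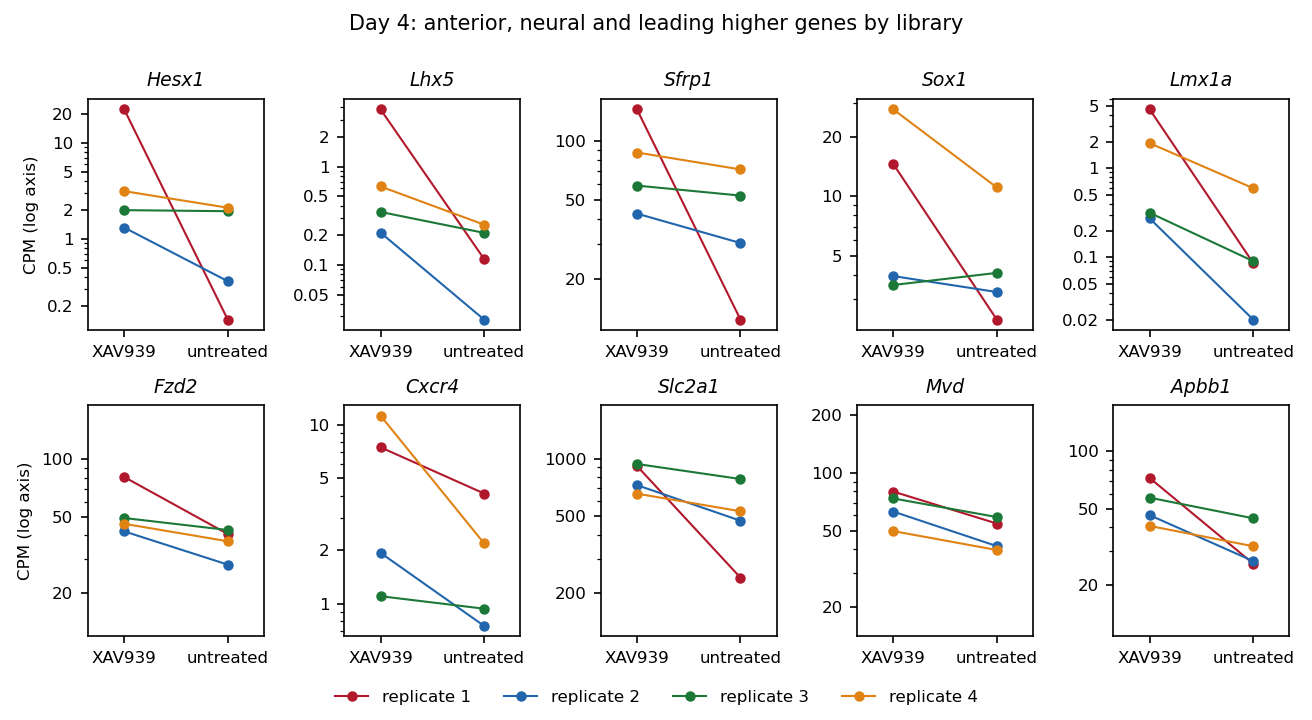
CPM (log axes, scaled per gene) of 10 genes in the XAV939 libraries (left) and the untreated libraries (right) of day 4, joined by replicate number. Nearly all lines run downward from XAV939 to untreated, the exception being Sox1 in replicate 3 (3.54 CPM with XAV939, 4.08 CPM without), and Hesx1 and Lhx5 are steepest in replicate 1.

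Pluripotency genes overlapped between the arms. Pou5f1 (Oct4) had 502, 815, 912 and 412 CPM with XAV939 and 1140, 743, 810 and 506 CPM without, and its log2 fold change was -0.29 (SE 0.428), or 0.00 without replicate 1. Nanog was lower in 4 of 4 pairs, at 164, 211, 148 and 211 CPM with XAV939 and 297, 253, 189 and 229 CPM without, with a log2 fold change of -0.40 (SE 0.332), and -0.24 without replicate 1. Its SE was close to its size. Of 14 tested genes of the naive state 4 were lower in all 4 pairs (Klf5, Tfcp2l1, Prdm14 and Nanog) and 1 was higher (Tbx3), and in pairs 2 to 4 there were 7 lower and 1 higher, against 15.6% and 16.9% of all genes. The median of the naive list was -0.04, and -0.33 without replicate 1, with pair medians of 0.72, -0.22, -0.15 and -0.71. Klf5 had 6.22, 7.1, 4.29 and 2.7 CPM with XAV939 and 18.9, 9.38, 4.87 and 5.25 CPM without, a log2 fold change of -0.79 (SE 0.205), and -0.50 without replicate 1. The 19 tested core and primed epiblast genes had a median of 0.10, and -0.01 without replicate 1.

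Sterol genes gave small but even differences. Of 17 tested members of the cholesterol synthesis list 16 had a positive log2 fold change, 7 were higher in all 4 pairs (Mvd, Mvk, Fdps, Fdft1, Sqle, Lss and Insig1) and 0 were lower in all 4, with a median of 0.15, or 0.10 without replicate 1. Mvd, which encodes mevalonate diphosphate decarboxylase, had 79.8, 62.8, 73.5 and 49.7 CPM with XAV939 and 54.4, 41.5, 58.8 and 39.6 CPM without. The fitted value was 0.45 on the log2 scale (SE 0.138), and 0.42 without replicate 1. The glucose transporter Slc2a1 had 916, 728, 938 and 657 CPM with XAV939 and 240, 475, 783 and 532 CPM without, a log2 fold change of 0.77 (SE 0.196), and 0.39 without replicate 1. The other 18 tested identifiers of the glycolysis and hypoxia list included 3 further genes higher in all 4 pairs (Pfkl, Gapdh and Pkm). The list's median was 0.02, and 0.11 without replicate 1.

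Among cell cycle genes 8 of 18 were lower in all 4 pairs and 3 were higher (Ccnb2, Ccnd1 and Cdkn2a), with a list median of -0.07, and the pair medians lay between -0.07 and -0.06. Mki67, a proliferation marker, had a log2 fold change of -0.18. Ccnd2, a D-type cyclin, had 89.6, 52, 32.6 and 90.4 CPM with XAV939 and 267, 78.3, 45.9 and 103 CPM without, and Cdkn1a, a cell cycle inhibitor that p53 induces, had 58.1, 135, 106 and 88.5 CPM with XAV939 and 248, 163, 118 and 109 CPM without. Both were lower in each pair and most so in pair 1. The log2 fold change of Ccnd2 was -0.71, and -0.43 without replicate 1, and that of Cdkn1a was -0.68, and -0.24 without it.

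Lists for other cell types gave the following levels. Summed over the 9 tested trophoblast genes, levels were 52.9 to 92.3 CPM with XAV939 and 88.4 to 378 CPM without. The list includes Eomes and Cdx2, which the streak and caudal epiblast also express, and the defining genes Prl3d1 and Tpbpa were at 0. The 10 germ cell genes summed to 69.3 to 97.1 CPM with XAV939 and 85.7 to 158 CPM without, with 3 lower in all 4 pairs (Prdm1, Prdm14 and Kit). In pairs 2 to 4 there were 7 of the 10 lower and 1 higher, against 15.6% and 16.9% of all genes, and the median was -0.43, or -0.35 without replicate 1. Genes of primitive and visceral endoderm summed to 403 to 549 CPM with XAV939 and 358 to 479 CPM without, and 5 of 14 were higher in all 4 pairs, with a median of 0.26, or 0.36 without replicate 1. That list includes matrix genes, such as Lama1 and Col4a1, which are also on a list of laminins, integrins and collagen IV. Its members Ttr, Apoa1, Afp, Amn and Sox7 had at most 0.461 CPM in any of the 8 libraries. Endothelial and blood genes summed to 19.8 to 29.6 CPM with XAV939 and 22.6 to 40.6 CPM without. The part of these lists in the differences above was not tested.

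The 24 genes of smallest unadjusted p were taken from genes with at least 5 CPM in the higher arm and 1 direction in all 4 pairs, 12 each way, so their agreement between pairs is part of the choice. The 12 lower genes were Mcc, Tgfbr3, Mixl1, Cdx1, Aldh5a1, Sgk1, Sat1, Oxct1, Ppp4r4, Nudt4, Lmo2 and Ndrg3, with log2 fold changes between -3.78 and -0.42, or between -1.78 and -0.25 without replicate 1. DESeq2 called 11 of them, the exception being Cdx1. It used the same counts and pairs, so its calls are not independent of the choice. Mcc, named for its mutation in colorectal cancers, had 6.16, 10.4, 5.94 and 10.5 CPM with XAV939 and 70, 20.3, 11.4 and 19.6 CPM without. The arms did not overlap, and in pairs 2, 3 and 4 the log2 differences were -0.95, -0.93 and -0.90. Its log2 fold change was -1.54 (SE 0.329, edgeR adjusted p 0.24), and -0.93 (SE 0.223, edgeR adjusted p 1) without replicate 1. Mcc overlaps the antisense gene A930012L18Rik. Tgfbr3 (betaglycan), a co-receptor for TGF-β ligands and inhibin, had 18, 14.4, 12.7 and 18.3 CPM with XAV939 and 109, 28.2, 23.5 and 29.7 CPM without, again with no overlap and a log2 fold change of -1.28, or -0.85 without replicate 1. Oxct1, an enzyme of ketone body use, had 81.2 to 109 CPM with XAV939 and 122 to 205 CPM without.

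The 12 higher genes were 1700048O20Rik, Apbb1, Adamts10, Pcdh18, Mpped1, B4galnt4, Lmtk3, Fzd2, Evc, Crb2, Large2 and Slc46a1, with log2 fold changes between 0.35 and 1.21, or between 0.25 and 0.65 without replicate 1. DESeq2, on the same counts and pairs, called all 12. Apbb1, an adaptor that binds the amyloid precursor protein, had 72.3, 46.3, 57.1 and 40.7 CPM with XAV939 and 25.9, 26.7, 44.6 and 31.9 CPM without. The arms overlapped through library 4 with XAV939 and library 3 without. Large2, a glycosyltransferase that modifies dystroglycan, had 47.5, 25.9, 27.9 and 32.2 CPM with XAV939 and 10.5, 16.1, 23.6 and 22.1 CPM without, and its arms did not overlap. Crb2, an apical polarity protein that is needed for cells to leave the streak in mouse, had 44.3, 17.8, 18.7 and 29.6 CPM with XAV939 and 22.9, 12.5, 14.8 and 19.8 CPM without. Cxcr4, a chemokine receptor on the definitive endoderm and gut list, was not among these 12. It had 7.46, 1.92, 1.1 and 11.2 CPM with XAV939 and 4.12, 0.751, 0.937 and 2.17 CPM without. Its log2 fold change was 1.31 (SE 0.374), and 1.55 (SE 0.465) without replicate 1. Most of its list had the opposite sign, with a negative log2 fold change in 14 of 18 tested members. The list's median was -0.43, and -0.04 without replicate 1. In all 4 pairs 4 members were lower and only Cxcr4 was higher.

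To ask whether XAV939 aggregates were behind or ahead in time, each library was placed on the line from the untreated day 3 mean (position 0) to the untreated day 5 mean (position 1), over all tested genes. XAV939 libraries of day 4 stood at 0.63, 0.436, 0.434 and 0.655, and untreated ones at 0.747, 0.446, 0.457 and 0.57. The arms averaged 0.539 ± 0.12 with XAV939 and 0.555 ± 0.14 without (SD, n = 4 each). Replicates 2 and 3 were less far along than replicates 1 and 4 in both arms. The mean pair difference was -0.0164 (SD 0.0824), lower with XAV939 in 3 of 4 pairs (exact two-sided paired permutation p = 0.625, where the smallest p that 4 pairs can give is 1 in 8). Without replicate 1 it was 0.0171. No shift along this line was detectable beyond the spread between pairs.

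**Figure D4:**
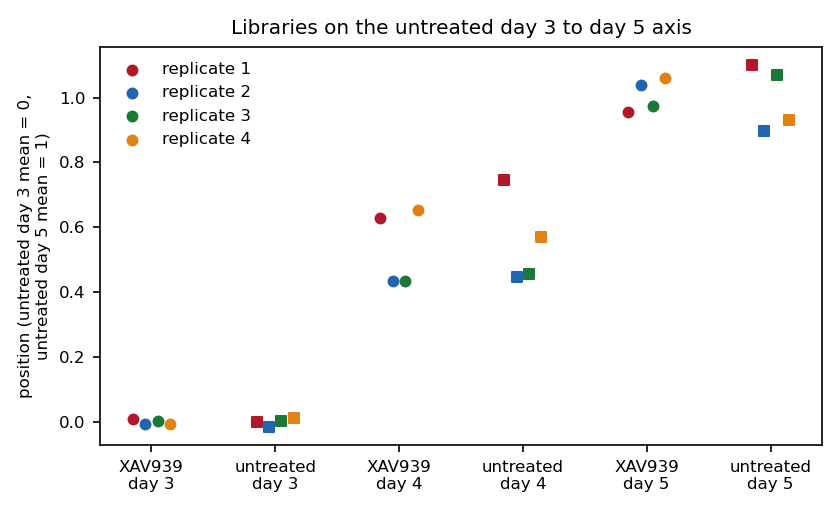
Position of each library (y axis, no unit) on the line between the untreated day 3 mean (0) and the untreated day 5 mean (1), by day and arm (XAV939 circles, untreated squares), coloured by replicate. The day 4 libraries of both arms lie between 0.434 and 0.747, and untreated library 1 is the farthest along.

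The effect at day 4 was then set against that at day 3, the end of treatment, and at day 5. Between day 4 and day 3 the paired edgeR fit called 0 genes either way (0%), with 1492 at an unadjusted p below 0.05 (8.84%), and DESeq2 called 3 higher and 3 lower. Between day 4 and day 5 it called 82 genes, 71 with a higher log2 fold change at day 4 (0.421%) and 11 with a lower one (0.0652%). Of the 82, 67 had a day 4 log2 fold change within 0.5 of 0, a share that was not counted over all genes. At day 4, 21 of the 82 had an unadjusted edgeR p below 0.05, as had 1660 of all 16878 genes (9.84%). In all 71 the XAV939 mean at day 5 was below the untreated mean, and in all 11 it was above. This direction largely follows from the choice of genes by the sign of the difference, as most were near 0 at day 4. These calls depended on the pairing and on the number of libraries: without the pairing edgeR called 0 and limma-voom with library weights called 2 higher and 10 lower, a fit of only these 2 days called 1, and leaving out replicate 2 of day 4 left 4 and 1. Without replicate 1 of day 4 the paired edgeR fit called 106 genes, of which 56 were among the 82.

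The genes named next were chosen after their values were seen, and their differences are given with all 4 pairs unless stated. Cldn6, a claudin of embryonic epithelia, had 66.7, 109, 125 and 54.8 CPM with XAV939 and 58, 105, 118 and 73.9 CPM without at day 4, so the arms were level and varied together between replicates. At day 5 it averaged 12.8 ± 4.92 CPM with XAV939 and 46.2 ± 23.3 CPM without (SD, n = 4 each). The difference between the log2 fold changes was 1.79 (SE 0.205, edgeR adjusted p 0.000325). It was 1.81 without pairing and without replicate 1, where it was not called.

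Krt8, a keratin of simple epithelia, averaged 60.2 ± 10.9 CPM with XAV939 and 70.6 ± 20.8 CPM without at day 4, and 32.6 ± 7.86 CPM with and 103 ± 35.5 CPM without at day 5, a difference of 1.41 (SE 0.279, edgeR adjusted p 0.0269). Esrp2, a splicing regulator of epithelia, was also called, at 1.89 (SE 0.41, edgeR adjusted p 0.0413). Of 16 tested epithelial genes 3 were called in this comparison, Cldn6, Krt8 and Esrp2, all with a higher value at day 4, against 0.421% of all genes, and the list's median difference was 0.95, against -0.01 over all genes. The difference was not particular to the epithelial list. Definitive endoderm and gut genes had a median difference of 1.0, with 3 called higher, Cldn6 and Krt8 among them. The median was 1.32 for presomitic and paraxial mesoderm and -0.45 for the caudal epiblast list. At day 4 itself the epithelial median was -0.15.

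Cyp26a1, the enzyme that clears retinoic acid in the posterior embryo, had 25.6, 6.62, 7.09 and 7.94 CPM with XAV939 and 13.9, 3.14, 5.35 and 9.55 CPM without at day 4. At day 5 it averaged 8.34 ± 2.86 CPM with XAV939 and 36.2 ± 15.7 CPM without, so that the arms had changed order, and the difference was 2.56 (SE 0.295, edgeR adjusted p 0.000325). Dusp4, a phosphatase that dampens ERK, had 60.1 to 91.1 CPM with XAV939 and 53.6 to 65.1 CPM without at day 4, and at day 5 its XAV939 libraries (41.7 to 57.7 CPM) lay below the untreated ones (68.7 to 96.3 CPM). Its difference of 1.04 (SE 0.14, edgeR adjusted p 0.00232) was called also in the fit of these 2 days alone. The Wnt antagonist Dkk1 had 1.41 to 14.9 CPM with XAV939 and 1.42 to 20.8 CPM without at day 4, and 14.6 ± 3.48 CPM with and 32 ± 7.78 CPM without at day 5.

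In the other direction, Egfr, the epidermal growth factor receptor, had 5.03 to 5.65 CPM with XAV939 and 5.84 to 8.09 CPM without at day 4, and 15.6 ± 2.82 CPM with and 5.53 ± 1.79 CPM without at day 5 (difference -1.81, SE 0.27, edgeR adjusted p 0.00567). Thbs1, the matrix protein thrombospondin, averaged 9.97 CPM in both arms at day 4, with SDs of 2.7 with XAV939 and 1.16 without. At day 5 it averaged 58.9 ± 23.6 CPM with XAV939 and 13.8 ± 6.45 CPM without, a difference of -2.15 (SE 0.422, edgeR adjusted p 0.0264).

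The streak genes that led the day 4 comparison were not among the 82. T averaged 196 ± 69.8 CPM with XAV939 and 395 ± 89.1 CPM without at day 5 (SD, n = 4 each), and Mixl1 30.8 ± 14 CPM with and 70.4 ± 15.1 CPM without. The difference between the log2 fold changes of T at day 4 and day 5 was -1.66 (SE 0.889, edgeR adjusted p 0.473).

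**Figure D5:**
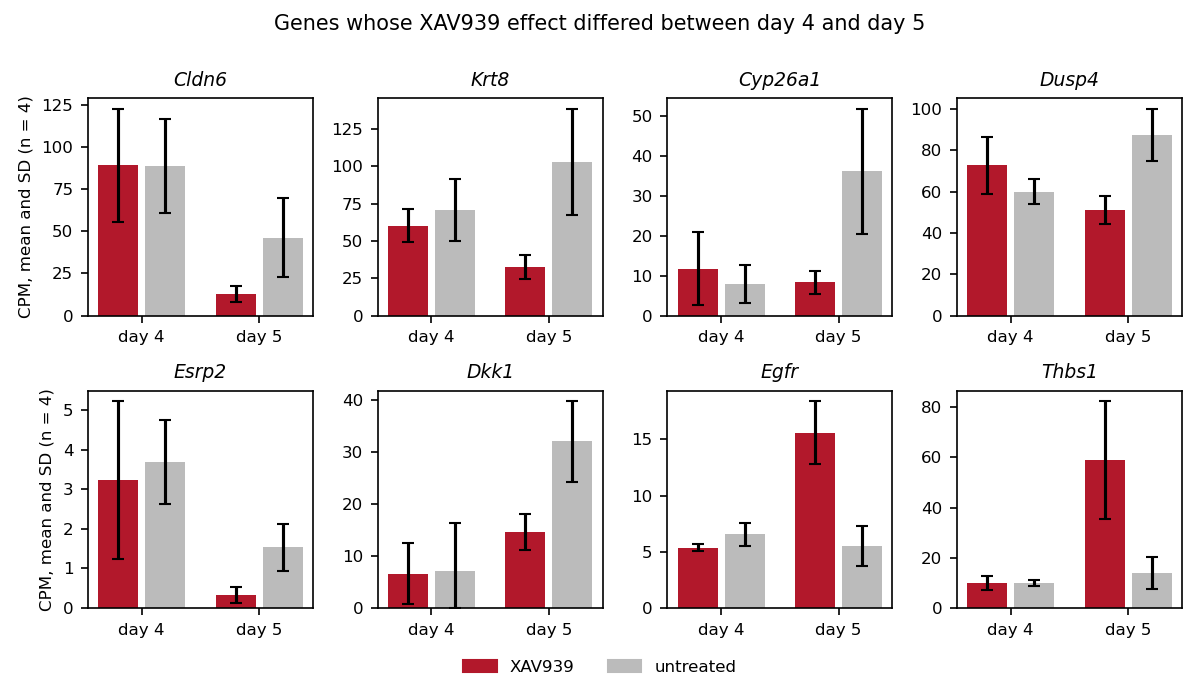
Mean CPM (y axes, starting at 0) of 8 genes in XAV939 (red) and untreated (grey) aggregates at days 4 and 5, with SD bars over 4 libraries, cut at 0 for Dkk1. At day 4 the arms are close for each gene, as for Cldn6 at 89.1 and 88.8 CPM, and at day 5 the first 6 genes are lower and Egfr and Thbs1 higher with XAV939.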

How the data were processed

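The deposited table holds whole-number counts per gene, which the authors made from poly(A) RNA (Trizol extraction, TruSeq stranded libraries from 300 ng of RNA, 81-base read pairs, per the labels' protocols). The submitters' processing notes name bcl2fastq 2.20.0 and mm10. Not given in the sources used here were the aligner, the counter, the annotation and the strand setting. Whether a read on an antisense partner was counted for a gene is therefore unknown.

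Columns were matched to samples by title, and all 40 libraries (30197759 to 44086019 counts) entered the fit. Of 26906 genes, 16878 passed filterByExpr (minimum count 10, total 15). edgeR 4.0.16 in R 4.3.3 fitted TMM-scaled counts with a quasi-likelihood model (robust) of 20 blocks, 1 for each replicate number of each day, and 5 XAV939 effects, leaving 15 residual degrees of freedom. The calling threshold was an adjusted p of 0.05 over all genes tested. The pairing by number was checked at day 4: deviations from the arm means correlated at 0.292, 0.523, 0.367 and 0.419 between same-numbered libraries across genes, each the highest for its library. Libraries of 1 arm differed by a chi-square per gene of 8.14 to 93.3, so none was a copy of another. Positions in time used log2 CPM with a prior count of 2.

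Members, gene lists and alternatives were chosen with earlier results of these data known. Named genes are a panel of markers, 2 to 4 or more members of each list (smallest p and highest mean), and the 12 genes each way of smallest p with at least 5 CPM in the higher arm and 1 direction in all 4 pairs. A count lower in all 4 pairs uses TMM-scaled CPM. Gene positions come from GENCODE M21 (26881 identifiers matched) and promoters from RefSeq on GRCm38.p6. Alternatives were RLE size factors, DESeq2 1.42.0, limma 3.58.1 (voom with library weights), other filters, an added fold threshold, fits of fewer libraries, no pairing, and each day 4 replicate left out. The edgeR step was tested on simulated data. Each SE is the absolute log2 fold change divided by the square root of the quasi-likelihood F statistic, so it includes spread between libraries. Depth limits genes at low levels.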

Additional observations from a re-analysis of the deposited data

Results flagged for a closer look

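In 196 sets of 4 libraries (98 genes in each arm of day 4), the gap between the highest or lowest library and its neighbour was tested against the range, and 34 sets (17.3%) passed Dixon's critical value. That value flags about 1 in 20 independent groups by chance. The sets here share the same libraries, and many of the genes were chosen by their values. The 17.3% therefore cannot be measured against that rate. Untreated library 1 was already known to stand apart. Of the 34, 6 were XAV939 library 1 and 24 were untreated library 1.

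In XAV939 library 1 the neural and anterior genes Hesx1 (22.3 CPM), Lhx5 (3.82 CPM), Lhx2 (1.98 CPM), Irx3 (51.9 CPM) and Fzd8 (21.7 CPM) stood above the other 3, as did Cyp26a1 (25.6 CPM). In untreated library 1 the streak and mesendoderm genes T (550 CPM), Mixl1 (167 CPM), Foxa2 (31.9 CPM), Evx1 (37.1 CPM), Mesp1 (1.81 CPM), Cer1 (9.45 CPM) and Snai1 (8.47 CPM) stood above the rest. So did the ligands Fgf8 (42.7 CPM), Fgf5 (218 CPM), Wnt3 (59.5 CPM) and Wnt3a (15.8 CPM), the caudal genes Cdx1 (31.4 CPM) and Cdx2 (10.7 CPM), the feedback genes Spry4 (42.5 CPM) and Dusp6 (177 CPM), and the Wnt targets Axin2 (120 CPM), Lef1 (103 CPM), Sp5 (31.9 CPM) and Dkk1 (20.8 CPM). Lmo2 (18.7 CPM), Mcc (70 CPM), Tgfbr3 (109 CPM) and Ndrg3 (95.5 CPM) were also high there, and Sox2 (5.82 CPM) was low. The remaining 4 were Lmtk3 in untreated library 3 (10.8 CPM) and Lmx1a (0.599 CPM), Wnt1 (1.6 CPM) and Wnt10b (2.45 CPM) in untreated library 4.

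A second kind of result differed between day 4 and day 5 by an edgeR test of the difference of the log2 fold changes. Positive differences were those of Cldn6 (1.79, adjusted p 0.000325), Cyp26a1 (2.56, adjusted p 0.000325), Dusp4 (1.04), Krt8 (1.41), Esrp2 (1.89), Snai1 (1.88), Dkk1 (1.32), Foxh1 (0.81), Tbx3 (1.94), Foxa3 (2.76) and Itgb5 (0.94). Negative ones were those of Egfr (-1.81) and Thbs1 (-2.15). The largest adjusted p of these 13 was 0.0484, for Snai1. Without the pairing edgeR called 0 genes in this comparison.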

How the results depend on the processing

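The counts of called genes depended most on the test and on the pairing. At day 4 DESeq2 called 35 genes higher and 32 lower where edgeR called 0 and 0, and edgeR with no replicate block called 3 lower. The other 12 alternatives, each replicate left out included, called 0 each way. For the effect at day 4 against that at day 3, DESeq2 called 3 higher and 3 lower. For day 4 against day 5 (71 higher, 11 lower) DESeq2 called 234 and 52, and limma-voom with library weights and no block called 2 higher and 10 lower. A fit of these days alone with the block called 1 higher and 0 lower, and the 3 fits with no replicate block called 0 and 0. Lower calls were 7 with no filter on low counts and 4 with an added fold threshold, and leaving out 1 day 4 replicate gave 4 to 108 higher and 1 to 15 lower. The difference in position along the day 3 to day 5 line was 0.00359 on the XAV939 axis and -0.05 to 0.0171 with 1 replicate left out, positive only without replicate 1.

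Over 98 genes and 13 alternatives 1269 gene results were recomputed: 1134 kept sign and side of the threshold, 33 gained a call, 85 lost one and 17 changed sign. With 1 replicate left out the log2 fold change ran from -7.06 to 0.51 for Cer1, -1.97 to 0.82 for Wnt3a, -0.20 to 0.04 for Axin2, -0.01 to 0.85 for Sox2 and -0.03 to 0.44 for Otx2, and each changed sign only without replicate 1. Without replicate 1 and with no block it was 0.57 for Cer1, 0.90 for Wnt3a, 0.11 for Lefty1, 0.05 for Axin2, 0.06 for Pou5f1 and -0.01 for Otx2. With limma-voom it was 0.26 for Cer1, 0.02 for Wnt3a, 0.04 for Lefty1, 0.07 for Axin1, 0.13 for Pou5f1 and 0.02 for Cdh1. The cause was not tested.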

Other observations

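Some genes outside the lists described above also differed in the same direction in all 4 pairs and were called by DESeq2 with the pairing (none by edgeR). They were chosen after their values were seen. Fst (follistatin), a secreted inhibitor of activin, averaged 90.8 CPM with XAV939 and 219 CPM without (log2 fold change -1.02, and -0.52 without replicate 1). Vangl1, a planar cell polarity protein, averaged 11.8 CPM with XAV939 and 27 CPM without (log2 fold change -0.90, and -0.38 without replicate 1). Among higher genes, Fgfr3, an FGF receptor of neural progenitors, averaged 5.68 CPM with XAV939 and 2.24 CPM without (log2 fold change 1.22, and 0.57 without replicate 1). Col2a1, a collagen of notochord and cartilage that early neural tissue also expresses, averaged 45.8 CPM with XAV939 and 21.7 CPM without, and Ephb1, an ephrin receptor, 32.2 CPM with XAV939 and 15.3 CPM without. Their log2 fold changes of 0.94 and 1.09 became 0.53 and 0.54 without replicate 1.

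Across genes, the differences of pair 1 correlated with those of pairs 2, 3 and 4 at 0.262, 0.117 and 0.16. The differences of pairs 2 and 3 correlated at 0.219, those of pairs 2 and 4 at 0.0922 and those of pairs 3 and 4 at -0.0116. Each value is over 16878 genes, which are not independent replicates.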
